A study of Mus musculus with 6 samples.

Results

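Ribosome biogenesis is the assembly of ribosomal subunits, which starts in the nucleolus. The 39 protein-coding genes described here encode RNA polymerase I and its factors, small nucleolar ribonucleoprotein (snoRNP) proteins, abundant nucleolar proteins, and processing factors of the small and the large ribosomal subunit. They were taken by name from 21887 protein-coding genes, and a gene was counted as occupied when a listed region lay within 1 kb of either annotated end. All 39 names were found in the RefSeq table of the mm10 genome.

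The cells were mouse embryonic stem cells with a GFP knock-in at Rx, grown in 2i+LIF, and every group lacked endogenous Wdr5 and p53. The mutant rescue carried WDR5 with the substitutions S91K and Y191F, and the WT rescue carried wild-type WDR5. For each line there was 1 WDR5 library, 1 H3K4me3 library and 1 input library from chromatin immunoprecipitation sequencing (ChIP-seq), and the 4 WDR5 and H3K4me3 peak lists are described here. The labels give no age, no promoter for the rescue construct, and no statement of whether a line was a single clone.

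RNA polymerase I transcribes the precursor of the large ribosomal RNAs. Small nucleolar RNAs (snoRNAs) in snoRNPs guide its methylation and pseudouridylation, and the small-subunit processome and a set of large-subunit factors cut and fold it. WDR5 is a scaffold subunit of the complexes that methylate lysine 4 of histone H3, and H3K4me3, the trimethylated form, marks many promoters without showing by itself that a gene is transcribed. Many snoRNAs are encoded in introns of genes for nucleolar proteins, so that host gene and guide RNA are made from the same transcript.

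The WDR5 lists held 26888 regions in the mutant rescue and 11095 in the WT rescue, and the H3K4me3 lists 74305 and 71695. Read depth is unknown, because the lists carry no read totals, and region number and width depend on it. Because each antibody has 1 library per line, differences between lines lack any replicate check, no p-value is given, and intervals on shares cover counting error only. H3K4me3 regions lay at 11 of 12 embryonic stem cell marker genes in both lines, the exception being Esrrb in each. They lay at 4 of 10 fibroblast markers in the mutant rescue and 7 of 10 in the WT rescue. Pdgfra, Fap and Postn had none in either line, and Col1a1, Acta2 and Prrx1 had none in the mutant rescue. The part of these markers in the results below was not tested.

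Promoters are shown for 4 of the members whose WDR5 region reached the annotated start, because these are places where the WDR5 result falls on promoter sequence. Nop58, Ltv1, Wdr12 and, at an internal start, Ubtf also had such a region in the WT rescue and are not shown. Gnl3 and Polr1c had a region in both lines, and Wdr43 and Nhp2 in the WT rescue alone. Each run goes from 250 bases before the start to 30 bases after it, 5′ to 3′ on the gene's strand, from RefSeq on GRCm38.p6. The places are chr14:31019102-31019381 for Gnl3 (minus strand), chr17:46248016-46248295 for Polr1c (minus strand), chr17:71615965-71616244 for Wdr43 (plus strand) and chr11:51619523-51619802 for Nhp2 (plus strand). Capitals mark an SP motif (GGGGCGGGG on either strand), an ETS motif (CCGGAAGT) or an E-box (CACGTG).
Gnl3: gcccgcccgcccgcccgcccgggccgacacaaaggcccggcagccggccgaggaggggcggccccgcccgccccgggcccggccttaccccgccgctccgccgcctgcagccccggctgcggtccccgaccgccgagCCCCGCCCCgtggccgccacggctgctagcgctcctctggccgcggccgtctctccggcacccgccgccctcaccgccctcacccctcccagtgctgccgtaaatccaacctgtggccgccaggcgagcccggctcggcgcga
Polr1c: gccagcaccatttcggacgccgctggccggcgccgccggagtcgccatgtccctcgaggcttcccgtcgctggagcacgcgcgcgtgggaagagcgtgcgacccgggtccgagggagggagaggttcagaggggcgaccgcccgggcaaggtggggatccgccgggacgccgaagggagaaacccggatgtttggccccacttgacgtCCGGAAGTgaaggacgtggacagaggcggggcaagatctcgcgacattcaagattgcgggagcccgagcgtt
Wdr43: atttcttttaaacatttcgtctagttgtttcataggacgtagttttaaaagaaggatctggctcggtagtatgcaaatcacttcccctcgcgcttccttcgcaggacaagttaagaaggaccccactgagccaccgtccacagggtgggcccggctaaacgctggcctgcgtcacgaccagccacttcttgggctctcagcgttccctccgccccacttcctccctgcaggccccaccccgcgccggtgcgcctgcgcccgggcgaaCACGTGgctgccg
Nhp2: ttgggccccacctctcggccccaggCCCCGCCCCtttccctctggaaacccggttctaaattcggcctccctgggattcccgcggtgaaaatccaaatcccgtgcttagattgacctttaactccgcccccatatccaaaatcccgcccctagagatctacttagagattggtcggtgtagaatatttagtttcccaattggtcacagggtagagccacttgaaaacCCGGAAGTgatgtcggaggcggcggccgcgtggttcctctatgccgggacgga

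WDR5 regions lay at fewer of the 39 genes in the mutant rescue than in the WT rescue, although the mutant rescue list was the longer. That list was longer mainly in weak regions. At −log10 q ≥ 2 the lists held 1299 regions in the mutant rescue and 1197 in the WT rescue. In the mutant rescue 8 of 39 genes had a region (20.5%, exact 95% interval 9.30 to 36.5%), against 10.7% of all protein-coding genes. In the WT rescue 19 of 39 had a region (48.7%, 32.4 to 65.2%), against 16.3% of all protein-coding genes. Both lists held 5 of the genes (Polr1c, Rrp9, Gar1, Gnl3 and Rrs1; background 4.33%). A further 3 were in the mutant rescue list alone and 14 in the WT rescue list alone, and 17 were in neither. Among the 15200 protein-coding genes with H3K4me3 at an end in either line, 13.6% had a WDR5 region in the mutant rescue, 23.0% in the WT rescue and 6.19% in both.

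The share of the WT rescue genes that the mutant rescue list also held was at the background. Of the 19 members occupied in the WT rescue, 5 were also in the mutant rescue list (26.3%, 9.15 to 51.2%), and of all protein-coding genes occupied in the WT rescue 26.5% were. Of the 8 members occupied in the mutant rescue, 5 were also in the WT rescue list (62.5%, 24.5 to 91.5%), against 40.4% of all such genes. At −log10 q ≥ 2 no member had a region in the mutant rescue, so the shared count could only be 0 of the 5 WT rescue members. Of all protein-coding genes past this threshold in the WT rescue, 35.0% were also past it in the mutant rescue. The members' 0 cannot be set against that share.

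At a stricter threshold the WT rescue share was above the background, and the mutant rescue share was near it. At −log10 q ≥ 2, 0 of 39 genes had a WDR5 region in the mutant rescue (0%, 0 to 9.03%), against a background of 1.72%. In the WT rescue 5 of 39 did (12.8%, 4.30 to 27.4%), against 2.35%, and 0 did in both (background 0.822%). The 5 were Ncl, Wdr43, Gnl3, Nop2 and Fbl. Ranked by −log10 p within the mutant rescue list, the best regions of the 8 occupied members stood at a median of 63.7% from the top, against 32.6% for all occupied protein-coding genes. Within the WT rescue list those of the 19 occupied members stood at a median of 28.4%, against 38.3%. The lists differ in length, so these ranks show no difference between the lines. When the mutant rescue list was shortened to the length of the WT rescue list, 1 member remained occupied in it, Gar1 (background 6.24%), which was also the 1 shared member (background 3.11%). With regions of −log10 p 5 and above the mutant rescue gave 1 member (background 2.76%), the WT rescue 7 (background 4.70%) and both lines 0 (background 1.21%). A window of 2.5 kb gave 10 members (background 15.9%), 21 members (background 20.0%) and 7 in both (background 6.04%).

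**Figure D1:**
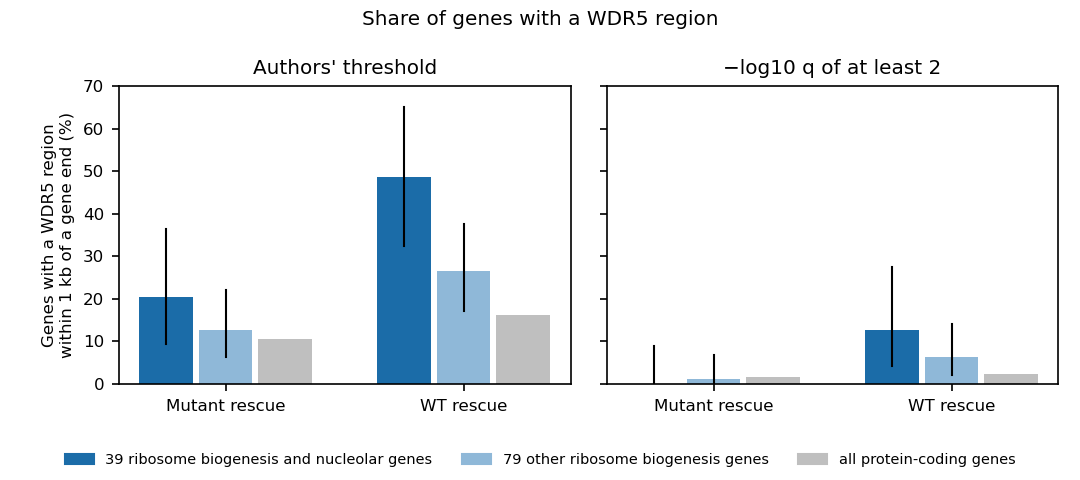
Percentage of genes with a WDR5 region within 1 kb of a gene end in the mutant rescue and the WT rescue (1 library each), at the authors' threshold and at −log10 q ≥ 2. Dark bars are the 39 genes (20.5% and 48.7% at the authors' threshold), pale bars 79 other ribosome biogenesis genes, grey bars all protein-coding genes, and black lines exact 95% binomial intervals.

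Among the genes of RNA polymerase I, WDR5 regions lay at 3 of 6 in the mutant rescue (background 10.7%) and 1 of 6 in the WT rescue (background 16.3%). None of these regions reached −log10 q 2. Polr1c, a subunit shared by polymerases I and III (chromosome 17, 46243920 to 46248045), was the member in both lists. Its region had a fold of 1.96 and a −log10 q of 0 in the mutant rescue, and a fold of 3.17 and a −log10 q of 1.12 in the WT rescue. Each fold is the authors' enrichment at the summit, within its own list. The 2 regions overlapped by 140 bp over the gene's start, where the end of Yipf3 also lies within 1 kb.

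Polr1a, the largest subunit of polymerase I, had a mutant rescue region alone, of fold 2.37 and 21 to 223 bases upstream of its start, with Ptcd3 within 1 kb. Polr1d, another subunit shared by polymerases I and III, had a pair of regions in the mutant rescue alone, of fold 2.48 and 1.85. The −log10 q of these 3 regions was 0.0171, 0.0741 and 0. Polr1b, the second largest subunit, and Rrn3, the initiation factor that couples polymerase I to its promoter, had no WDR5 region within 1 kb of an end in either line.

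At the authors' threshold the snoRNP genes held the highest share in the WT rescue. WDR5 regions lay at 2 of 9 in the mutant rescue (background 10.7%) and 8 of 9 in the WT rescue (background 16.3%). At −log10 q ≥ 2 Fbl alone of the 9 remained, beside Ncl and Gnl3 of the 3 genes for abundant nucleolar proteins. Fbl encodes fibrillarin, the methyltransferase of box C/D snoRNPs, and Nop56 and Nop58 its core partners. Within 1 kb of an end, all 3 had a region in the WT rescue alone. Fbl had a region of 371 bp with a fold of 3.16 and a −log10 q of 2.24. Nop58 had a region of fold 3.05 that began at its annotated start and ended 296 bases downstream, and Nop56 a region of fold 2.41 from 214 to 495 bases downstream. The −log10 q was 1.24 for Nop58 and 0 for Nop56. Just outside the 1 kb window, Nop56 also had a mutant rescue region of fold 2.43 and −log10 q 0.0826. It lay 1094 to 1244 bases downstream of the start, so the absence of Nop56 from the mutant rescue count depends on the window.

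The H/ACA snoRNPs, which guide pseudouridylation, contain the synthase dyskerin (Dkc1) with Nop10, Nhp2 and Gar1. Gar1 had regions in both lines, of fold 3.04 and −log10 q 1.41 in the mutant rescue and of fold 3.03 and −log10 q 0.724 in the WT rescue. They overlapped by 28 bp only, the mutant rescue region lying 336 to 493 and the WT rescue region 200 to 363 bases downstream of the start. Nhp2 (fold 2.57, −log10 q 0.0692) and Nop10 (fold 2.25, −log10 q 0) were in the WT rescue list alone. Dkc1 had no WDR5 region in either list.

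Rrp9, a protein of the U3 snoRNP, was counted in both lists but at opposite ends of the gene. The mutant rescue region (fold 2.25) lay at the higher-coordinate end, more than 8 kb from the start, and outside the H3K4me3 regions of that line. The WT rescue region (fold 2.09) lay 88 to 367 bases downstream of the start. Both had a −log10 q of 0. Nolc1, a chaperone of snoRNPs, had a region in the WT rescue alone, of fold 2.73 and −log10 q 0.388.

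Of the 3 genes for abundant nucleolar proteins, 1 was occupied in the mutant rescue (background 10.7%) and 2 in the WT rescue (background 16.3%). Ncl, which encodes nucleolin (chromosome 1, 86344719 to 86359455), had the highest WDR5 fold of the 39 genes. It had no region in the mutant rescue and a region of 662 bp, fold 3.998 and −log10 q 4.16, in the WT rescue, from 222 to 883 bases downstream of its start. The WT rescue list held another region of fold 2.89 upstream of Ncl. Gnl3 encodes nucleostemin, a GTP-binding nucleolar protein abundant in stem cells. Its region had a fold of 2.41 and a −log10 q of 0.0697 in the mutant rescue, and a fold of 3.75 and a −log10 q of 2.86 in the WT rescue. The whole 268 bp of the WT rescue region lay inside the mutant rescue region, and the end of Pbrm1 was within 1 kb.

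Of the 13 small-subunit processing genes, 0 had a WDR5 region in the mutant rescue (background 10.7%) and 5 in the WT rescue (background 16.3%). Wdr43, a component of the early small-subunit processome, had the widest region of the 39 genes, 679 bp. It reached from 32 bases upstream to 646 bases downstream of the start and had a fold of 3.85 and a −log10 q of 3.04. The others were Utp20 (fold 3.12), Nop14 (2.94), Ltv1 (2.20) and Nob1 (2.11). Utp20 and Nop14 are components of the small-subunit processome, Nob1 is the nuclease that makes the final cut at the 3′ end of 18S RNA, and Ltv1 is a late assembly factor of the small subunit. The −log10 q of these 4 was 0.693, 0.582, 0 and 0. Utp3, Utp4, Utp6, Utp15, Wdr75, Nop9, Rrp12 and Bysl had no WDR5 region at an end in either line.

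Of the 8 large-subunit processing genes, 2 were occupied by WDR5 in the mutant rescue (background 10.7%) and 3 in the WT rescue (background 16.3%). Nop2, an RNA cytosine methyltransferase of the large subunit, was occupied in the WT rescue alone, 392 to 739 bases downstream of its start, at a fold of 3.57 and a −log10 q of 3.33. Rrs1, which helps bring the 5S ribonucleoprotein into the pre-ribosome, was in both lists. Its regions had a fold of 1.74 and a −log10 q of 0 in the mutant rescue and a fold of 1.83 and a −log10 q of 0.207 in the WT rescue, and overlapped by 287 bp.

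Bop1, Pes1 and Wdr12 encode the PeBoW complex, which is needed for maturation of large-subunit RNA, and the 3 genes differed. Bop1 had a region in the mutant rescue alone (fold 1.85, −log10 q 0), where the end of Hsf1 is within 1 kb. Wdr12 had a region in the WT rescue alone (fold 3.01, −log10 q 0.387), where the end of Carf is within 1 kb, and Pes1 had none. Nop16, Rrp1 and Nip7 had none either.

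**Figure D2:**
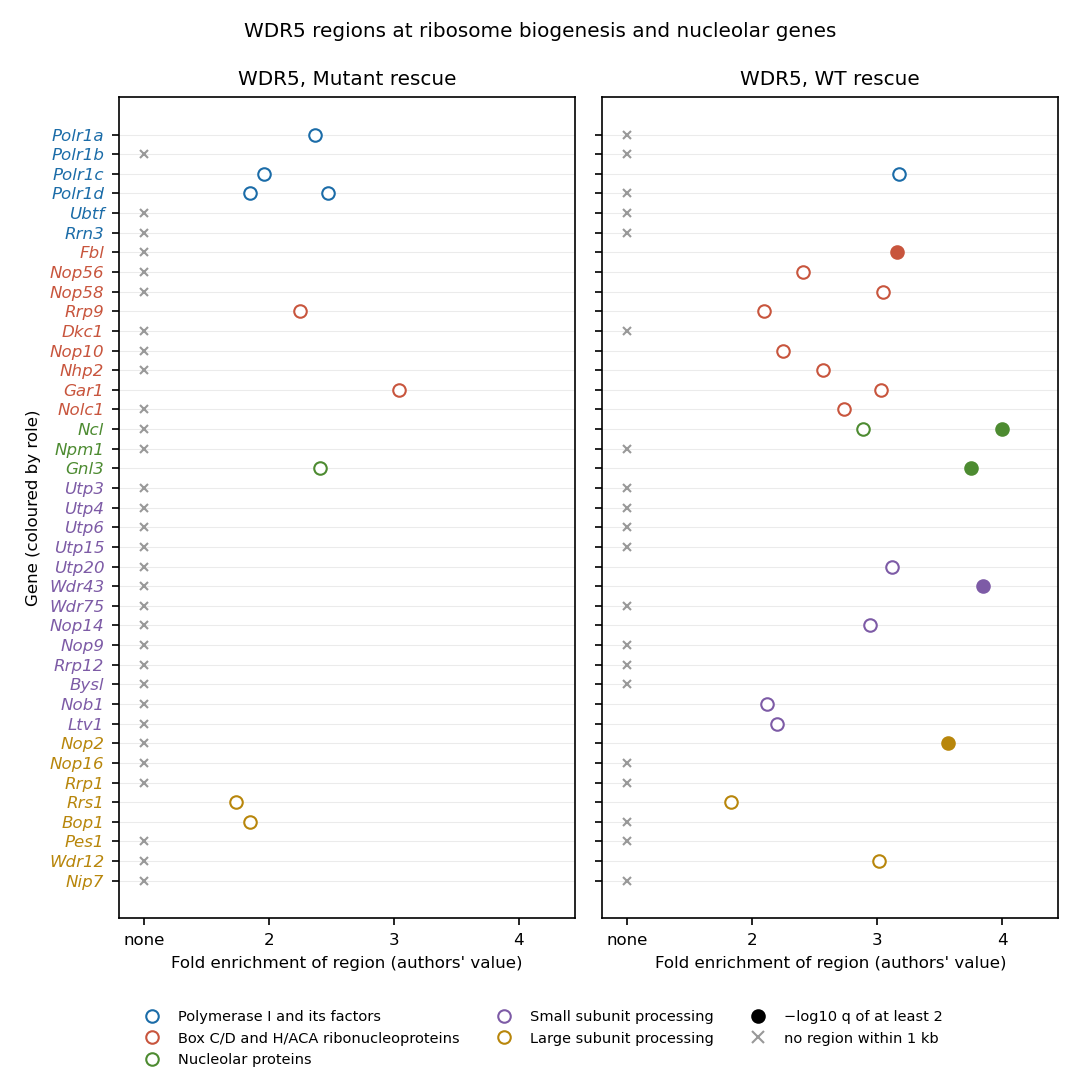
Authors' fold enrichment of each WDR5 region within 1 kb of an end of the 39 genes, in the mutant rescue (left) and the WT rescue (right), 1 library each, with filled symbols for −log10 q ≥ 2 and crosses for no region. The 5 filled symbols are all in the WT rescue, and the highest fold there is 3.998 (Ncl).

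Ubtf, whose product binds ribosomal DNA and opens it for polymerase I, and Npm1 (nucleophosmin) had no region of either antibody within 1 kb of a gene end. Both had regions inside the annotated gene. Ubtf had H3K4me3 regions of 3051 bp in the mutant rescue and 3722 bp in the WT rescue over its internal starts. Its WDR5 region, in the WT rescue alone, reached from 352 bases upstream to 101 bases downstream of one of these starts (454 bp, fold 2.61, −log10 q 0.440). Npm1 had H3K4me3 regions of 2515 and 2900 bp in the mutant and the WT rescue, and a WDR5 region of 241 bp within the latter in the WT rescue alone (fold 2.67, −log10 q 0.336). The H3K4me3 regions of Npm1 ended at 33163140 and 33163076, just outside 1 kb of the gene end at 33164142. Its absence from the H3K4me3 counts therefore depends on the window. These internal regions of Ubtf and Npm1 are not in the counts above. Counting the whole gene with 1 kb on either side, an alternative chosen after seeing these genes, gave 14 members in the mutant rescue (background 30.7%), 23 in the WT rescue (background 26.8%) and 9 in both (background 14.0%).

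The WDR5 regions of the 39 genes mostly lay on H3K4me3. Of 9 regions in the mutant rescue 8 overlapped an H3K4me3 region of that line, and of 20 regions in the WT rescue all 20 did. Over all protein-coding genes the count was of genes, not regions, and required no overlap. Of those with a WDR5 region at an end, 2050 of 2344 in the mutant rescue and 3496 of 3574 in the WT rescue also had H3K4me3 at an end. Each line had 4 regions that a region of the other line overlapped. Another protein-coding gene had an end within 1 kb of 6 of the 9 and 5 of the 20 regions, so these cannot be assigned to the member alone. Median widths were 223 bp in the mutant rescue and 274.5 bp in the WT rescue, beside 197 and 204 bp over the whole lists. Median folds were 2.25 in the mutant rescue and 2.98 in the WT rescue, beside 2.501 and 2.664 over the whole lists. The whole lists also hold regions away from gene ends. For the strongest region of each occupied gene, median widths were 265 and 269 bp at the members, beside 233 and 249 bp at all protein-coding genes. The median folds of these were 2.31 and 3.01, beside 2.55 and 2.73.

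The position of the summits was described for the 33 genes with a start in the RefSeq promoter table. Counting only regions within 1 kb of a start, 5 of the 33 genes were occupied in the mutant rescue (background 9.43%), 18 in the WT rescue (background 16.5%) and 3 in both (background 4.32%). Of 6 summits in the mutant rescue, 3 lay downstream of the start, against 59.9% of the summits at all protein-coding genes. Of 19 in the WT rescue, 13 did (68.4%), against 68.1%. The median summit lay 22.5 bases downstream in the mutant rescue and 94 in the WT rescue, against 92 and 143 for all genes. The summits of the stronger WT rescue regions at Ncl, Nop2 and Wdr43 lay 764, 536 and 438 bases downstream, and that of Gnl3 lay 37 bases upstream.

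**Figure D3:**
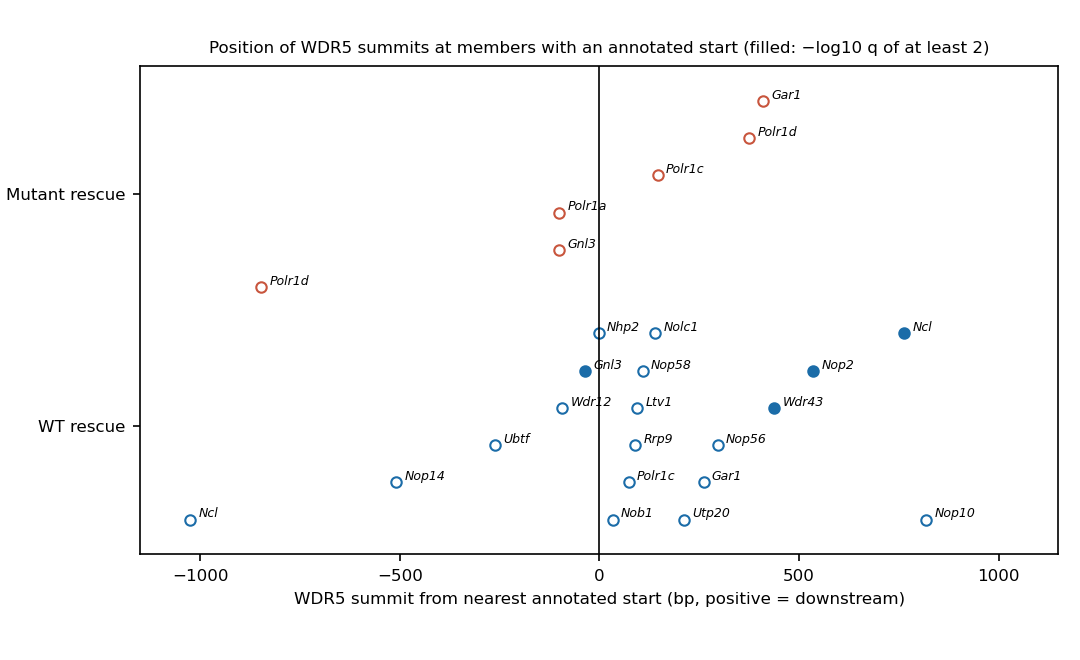
Distance in bp of each WDR5 summit from the nearest annotated start, for members with a start in the promoter table, in the mutant rescue (top) and the WT rescue (bottom), with filled symbols for −log10 q ≥ 2. Of the WT rescue summits, 13 of 19 lie downstream of the start.

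Members that hold a snoRNA gene were occupied more often in the WT rescue, although they number 6. These were Nop56, Nop58, Dkc1, Ncl, Gnl3 and Wdr43, by the snoRNA genes in the RefSeq table. Of the 6, 1 had a WDR5 region in the mutant rescue and 5 in the WT rescue, and of the 33 that hold none 7 and 14 did. Over all protein-coding genes a region lay at 22.0% and 34.7% of 372 genes holding a snoRNA gene, and at 10.5% and 16.0% of the rest. At −log10 q ≥ 2 the 6 gave 0 in the mutant rescue and 3 in the WT rescue (Ncl, Gnl3 and Wdr43), against 26 and 38 of the 372 genes holding a snoRNA gene and 351 and 476 of the 21515 others. None of the WDR5 regions at the gene ends overlapped a snoRNA gene. This split was chosen after the values were seen.

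H3K4me3 regions lay at an end of the same 37 of 39 genes in both lines, Ubtf and Npm1 being the exceptions described above. Over all protein-coding genes the shares were 67.6% in the mutant rescue, 68.4% in the WT rescue and 66.6% in both. The strongest region of each gene, by −log10 p, stood at a median of 4.78% down the mutant rescue list and 7.40% down the WT rescue list, against 9.94% and 10.8% for all genes with a region. These regions were broad rather than high. Their median width was 1812 bp in the mutant rescue and 1959 bp in the WT rescue, against 1440 and 1495 bp for all genes, while their median fold was 9.09 and 8.33, against 10.2 and 10.1.

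The order of the H3K4me3 folds was similar at its ends in both lines. The highest in each list were Ltv1 (15.1 in the mutant rescue, 15.6 in the WT rescue), Utp20 (14.1 and 12.7) and Rrp1 (13.8 and 12.6). The lowest in the mutant rescue were Nop10 (5.46), Ncl (5.51) and Polr1d (6.58), and in the WT rescue Ncl (4.18), Nop10 (4.70) and Nop58 (4.80). Ncl thus had the highest WDR5 fold of the 39 genes in the WT rescue and the lowest H3K4me3 fold there.

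H3K4me3 regions were narrower in the mutant rescue at most of these genes. Ubtf and Npm1 had no region to compare, and at Nop2 the strongest regions lay at different ends. At the lower-coordinate end of Nop2, where its WDR5 region lay, the H3K4me3 regions were 1664 bp wide in the mutant rescue and 2266 bp in the WT rescue. Among the other 36 genes, 33 (91.7%) had the narrower region in the mutant rescue, against 73.3% of all protein-coding genes. Their median width was 1824.5 bp in the mutant rescue and 1968 bp in the WT rescue, and the median difference, mutant minus WT, was −159.5 bp, against −72 bp for all genes. Among the genes narrower in the mutant rescue, the greatest differences were at Nop56, with 2419 bp in the mutant rescue and 3493 bp in the WT rescue, and Wdr43, with 1719 and 2344 bp. Fbl followed with 1736 and 2201 bp, and Gnl3 with 2340 and 2781 bp. The 3 exceptions were Rrs1 (2289 and 1768 bp), Nhp2 (1995 and 1861 bp) and Rrp9 (1274 and 1265 bp). At Rrs1 and Nhp2 the WT rescue list held a second, shorter H3K4me3 region on the upstream side, of 405 and 196 bp. From first to last base the WT rescue pair ran from 9544780 to 9547163 at Rrs1 and from 51619201 to 51621492 at Nhp2. The mutant rescue region lay within that span at both genes, so these 2 exceptions depend on how the regions were split.

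**Figure D4:**
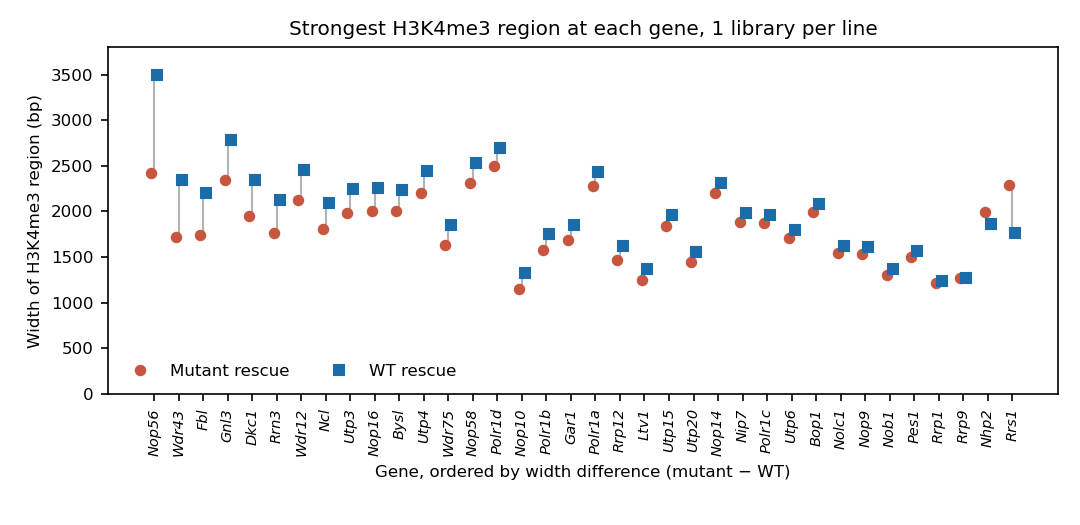
Width in bp of the strongest H3K4me3 region at 36 genes in the mutant rescue (circles) and the WT rescue (squares), 1 library each, ordered by the difference. The mutant rescue region is the narrower at 33 of the 36 genes, by the most at Nop56 (2419 and 3493 bp).

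The downstream edge differed in 1 direction at every gene compared, and the upstream edge did not. At all 31 genes with an annotated start at the region, the downstream edge was nearer the start in the mutant rescue, against 71.0% of 10275 protein-coding genes. The median difference of that edge, mutant minus WT, was −145 bp, with a range from −1024 to −7 bp, beside a median of −42 bp for all genes. The upstream reach was shorter in the mutant rescue at 17 of the 31 genes (54.8%), against 62.6% of all genes, with medians of −24 and −22 bp. At some genes the upstream side differed more, as at Polr1d (upstream −146 bp, downstream −46 bp) and Utp4 (upstream −198 bp, downstream −41 bp). At Nop56 the region ended 1682 bases downstream of the start in the mutant rescue and 2706 bases downstream in the WT rescue. The ends were 1554 and 2288 bases for Wdr43, 1942 and 2468 for Dkc1, 1030 and 1445 for Rrn3, and 1814 and 2179 for Ncl. This measurement was chosen after the widths were seen. Among genes whose regions stood in the top 25% of both lists, as all 31 did, the background was 71.9%, and for width, where all 36 genes also stood in that class, 74.6%. Joining regions up to 500 bp apart gave 31 of 31 genes, against 71.7% of all genes.

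The 6 members that hold a snoRNA gene were all narrower in the mutant rescue, with a median difference, mutant minus WT, of −420 bp (−1074 to −213 bp), and the other 30 had a median difference of −124 bp. Of all 308 genes that hold a snoRNA gene 246 were narrower in the mutant rescue. Over all protein-coding genes the medians of the difference were −111 bp for 308 genes holding a snoRNA gene and −72 bp for 14014 that hold none. Members with and without a WDR5 region in the WT rescue had like medians of the H3K4me3 difference, −147.5 bp for 18 and −159.5 bp for 18 genes. For all genes these were −100 and −64 bp. Since width follows read depth, which is unknown, and there was 1 library per line, the lines and their libraries cannot be told apart here.

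**Figure D5:**
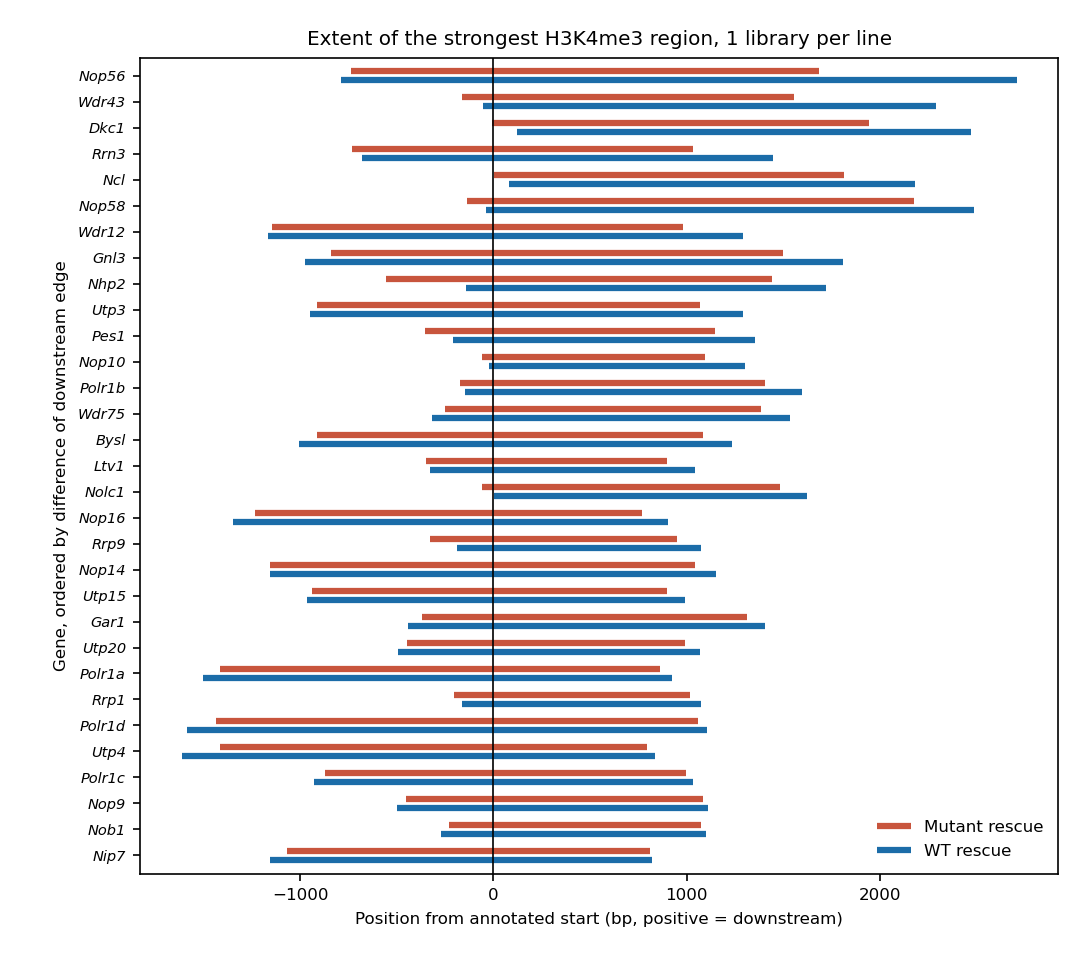
Extent of the strongest H3K4me3 region in bp from the annotated start at 31 genes, in the mutant rescue (upper bar of each pair) and the WT rescue (lower bar), 1 library each. The downstream edge is nearer the start in the mutant rescue at all 31 genes, with differences, mutant minus WT, from −1024 bp at Nop56 to −7 bp at Nip7.

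Other genes of the pathway were taken from a list of 82 names, of which 79 were found. WDR5 regions lay at 10 of 79 in the mutant rescue (12.7%, 6.24 to 22.0%) and at 21 of 79 in the WT rescue (26.6%, 17.3 to 37.7%), with 5 in both (6.33%). Over all protein-coding genes the shares were 10.7%, 16.3% and 4.33%, so the mutant rescue share was near the background. The shared genes of highest fold were Pwp1 (4.24 in the mutant rescue, 4.92 in the WT rescue), Wdr3 (3.17 and 4.10) and Rrp1b (2.65 and 3.05). Pwp1, which encodes a WD-repeat protein, was the only gene of this list past −log10 q 2 in both lines, with 4.86 in the mutant rescue and 6.41 in the WT rescue. Those highest in the mutant rescue alone were Taf1b (2.52), of the polymerase I selectivity factor, and Noc4l and Ddx51, which share 1 region of fold 2.46. Those highest in the WT rescue alone were Snu13 (3.68), which binds box C/D snoRNAs, Krr1 (3.60) and the helicase gene Ddx54 (3.28). At −log10 q ≥ 2 the list gave 1 of 79 genes in the mutant rescue, against 1.72% of all genes, and 5 of 79 in the WT rescue, against 2.35%.

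Promoter motifs were searched on both strands in the 300 bases of each RefSeq promoter, for the 33 members and 17492 protein-coding genes in the table. An ETS motif (CCGGAAGT) was present at 8 members (24.2%), against 5.69% of all genes, and an E-box (CACGTG), the site of Myc-family proteins, at 7 (21.2%), against 8.91%. The SP motif (GGGGCGGGG) was at 7 (21.2%), against 17.3%, the YY1 motif AANATGGC at 2 (6.06%), against 7.46%, and the TATA motif TATAAA at 2 (6.06%), against 14.8%. The palindromes named for ZBTB33 and NRF1 were found at 0 members, against 0.755% and 1.47% of all genes. Ltv1, Rrn3 and Utp4 held both an ETS motif and an E-box, with no overlap between them. In the printed promoters the ETS motif of Polr1c begins 42 bases and that of Nhp2 23 bases upstream of the start, and the E-box of Wdr43 begins 17 bases downstream. Of the 17 members with a start that had a WDR5 region at a gene end in the WT rescue, 4 held an ETS motif and 4 an E-box. Members' promoters had a median of 22 CG dinucleotides, against 13 for all genes.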

How the data were processed

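Chromatin was fixed for 10 minutes with 1% formaldehyde, per the labels' protocols. The submitters' processing notes name mm10, the peak caller MACS2 2.1.2, the aligner BWA 0.7.17-r1188, and Picard and SAMtools, and the settings are not given in the sources used here. Per peak, the deposited lists hold the authors' fold (a ratio), −log10 p and q, and a score that was not used. The smallest deposited −log10 p was 2.00. No pooling is recorded, and the input libraries were not analysed here.

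Genes came from RefSeq on GRCm38.p6 (mm10 coordinates, 1-based), and starts and promoters from a RefSeq promoter table, which held 33 of the 39 genes. Overlap means at least 1 bp. Shares have exact Clopper-Pearson 95% intervals. The window code was tested on simulated data and found 200 of 200 planted regions over 21887 genes. The members, lists and measurements were chosen with earlier results of these data known. All members could be named, with full values for those with a WDR5 region, the 3 highest and 3 lowest H3K4me3 folds per line, and the 3 highest of each class among other genes. Alternatives were −log10 q ≥ 2, a −log10 p from 5 upwards, equal list lengths, a 2.5 kb window, annotated starts only, a reciprocal overlap of 50% and, added later, whole genes and joined H3K4me3 regions. Software was matplotlib 3.10.9, scipy 1.17.1, pandas 2.3.3, numpy 2.4.6 and Python 3.11.15.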

Additional observations from a re-analysis of the deposited data

How the results depend on the processing

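The WDR5 counts depended on the threshold and on what part of a gene was searched, and the WT rescue count stayed above the mutant rescue count under each alternative run. Over all protein-coding genes the WT rescue share was also the higher, except by whole genes (30.7% in the mutant rescue, 26.8% in the WT rescue). In that order the shares were 1.72% and 2.35% at −log10 q ≥ 2, and 2.76% and 4.70% from −log10 p 5. They were 6.24% and 16.3% with equal list lengths, 15.9% and 20.0% at 2.5 kb, and 9.43% and 16.5% at annotated starts. Counts are given for the mutant rescue, the WT rescue and both lines. At −log10 q ≥ 2 the 39 genes gave 0, 5 and 0, and the 79 other ribosome biogenesis genes 1, 5 and 1. With regions of −log10 p 5 and above they gave 1, 7 and 0, and 3, 7 and 2. With equal list lengths the mutant rescue count was 1 and the shared count 1 for the 39 genes, and the mutant rescue count 6 for the others. Counting annotated starts only, 33 of the 39 genes could be searched and the mutant rescue and shared counts were 5 and 3. Counting whole genes gave 14 in the mutant rescue and 9 shared for the 39 genes (35.9% and 23.1%). For the others it gave 18 and 9 (22.8% and 11.4%), below the 30.7% and 14.0% of all protein-coding genes. Every other count, including H3K4me3 occupancy under all alternatives, stayed within 1.5 times its first value. With a 2.5 kb window the 39 genes gave 10 and 21, and with a reciprocal overlap of 50% 3 regions of each line were overlapped, against 4. Joining H3K4me3 regions up to 500 bp apart, chosen after seeing the data, left the downstream edge nearer the start in the mutant rescue at 31 of 31 genes, against 71.7% of all genes. No paired analysis was possible because each antibody and line had 1 library and the result comes from no test. Depth is unknown, and several of the members' WDR5 regions had a −log10 q of 0.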

Other observations

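WDR5 regions also lay inside members, away from their ends, and none of these reached −log10 q 2. In the mutant rescue such regions were found in Polr1a, Polr1b, Nop56, Utp4, Utp6, Utp20 and Rrp12, and in the WT rescue in Polr1a, Ubtf, Nop56, Npm1 and Rrp12. Nop56 had an internal region in each line, of fold 2.43 from 1094 to 1244 bases downstream of its start in the mutant rescue and of fold 2.27 from 1377 to 1630 bases downstream in the WT rescue. Both lay on H3K4me3 and did not overlap each other, and the mutant rescue region lay over the snoRNA gene Snord110. The internal regions of Polr1a, of fold 2.43 in the mutant rescue and 2.89 in the WT rescue, did not lie on H3K4me3 of their own line and began 16639 and 19911 bases downstream of its start.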
